A study of Mus musculus with 2 samples.

Results

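The genes of fatty acid activation and oxidation were examined in single-cell RNA sequencing of neural stem/progenitor cells (NSPCs). The list holds 34 mouse genes, grouped here by their known roles, and 33 of them were measured among the 15046 genes of the count table. *Ehhadh* was not analysed here. The cells were cultured adult NSPCs, originally isolated from the subventricular zone (SVZ) of C57/Bl6 male mice aged 6 to 8 weeks, passaged at least 5 times with EGF and FGF-2 at 20 ng/ml each, and kept as 1 stable line that carries a PLIN2-GFP retrovirus. PLIN2 coats lipid droplets (LDs), the stores of neutral lipid in a cell, so the GFP signal was used as a readout of LDs. Proliferating cells were sorted by GFP signal, 1 to a well of 384-well plates, with no other treatment. The bottom 25% and the top 25% of the signal are called here the low and the high cells. All cells carry the transgene, and both categories were present on each of 2 plates.

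A fatty acid enters metabolism once an acyl-CoA synthetase joins it to coenzyme A. The carnitine shuttle then carries long acyl chains into mitochondria, where each turn of β-oxidation removes an acetyl-CoA through a dehydrogenase, a hydratase, a second dehydrogenase and a thiolase, and hands electrons to the respiratory chain through the electron transfer flavoprotein. Peroxisomes shorten other chains, thioesterases release free acids from acyl-CoA, and NSPCs are known to use fatty acid oxidation as one of their sources of energy.

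Of the 304 cells, plate 1 gave 95 of the low category and 84 of the high, and plate 2 gave 72 and 53. Counts were summed per plate and category, which gave 778022 to 1029023 unique molecular identifiers (UMIs) a sum. The median cell held fewer UMIs in the low than in the high category, 7856 against 11709 on plate 1 and 11955 against 14729 on plate 2. No row of wells held both categories, so plate row and category cannot be told apart. The plates shared 59 cell barcodes, which the primers of the wells allow, since each plate was its own library. *Plin2* checked the sort, with 18 and 19 counts in low and 80 and 36 counts in high cells of plates 1 and 2 (log2 fold change 1.39, SE 0.29, edgeR adjusted p = 0.000415). The transgene carries the mouse *Plin2* coding sequence, so its mRNA may be among these counts. Transgene and endogenous *Plin2* were not told apart, so the check is not independent of the GFP signal. All 7 NSPC markers were measured and together reached 7934 to 7990 counts per 1000000 UMIs (CPM) in the low and 7877 to 7947 in the high sums. Within that list *Vim* was called lower in high cells (log2 fold change -0.22, edgeR adjusted p = 0.0405) and *Slc1a3* higher (0.24, adjusted p = 0.0856). Summed markers of astrocytes (5 of 5 measured) reached 77.7 to 96.0 CPM in low and 99.0 to 126 in high sums, those of neurons (4 of 6, without *Tubb3* and *Dcx*) 539 to 543 and 386 to 494, and those of oligodendrocytes (2 of 5, without *Mbp*, *Mog* and *Mag*) 7.89 to 12.1 and 14.6 to 19.3. No gene of these 3 lists was called, and their part in the differences between the categories was not tested. The 5 microglial markers were not analysed here.

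Levels are given in CPM of the UMIs, scaled between sums by TMM factors. A UMI marks the 3′ end of 1 molecule, so values were not divided by gene length, and levels of different genes are on the scale of UMIs. The 33 genes held 0.254% of all UMIs. *Acadl*, the long-chain acyl-CoA dehydrogenase, was the most abundant with 12.4% of the list's UMIs, and the 10 most abundant members held 67.3%. At the other end, 12 members had under 100 counts over all cells. The genes lie on 14 chromosomes. Most are far apart, except *Hadha* and *Hadhb*, the subunits of the mitochondrial trifunctional protein, which start back to back on chromosome 5 with 85 bases between them (GRCm38, 30118304 to 30155162 on the minus strand and 30155248 to 30184593 on the plus strand).

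**Figure D1:**
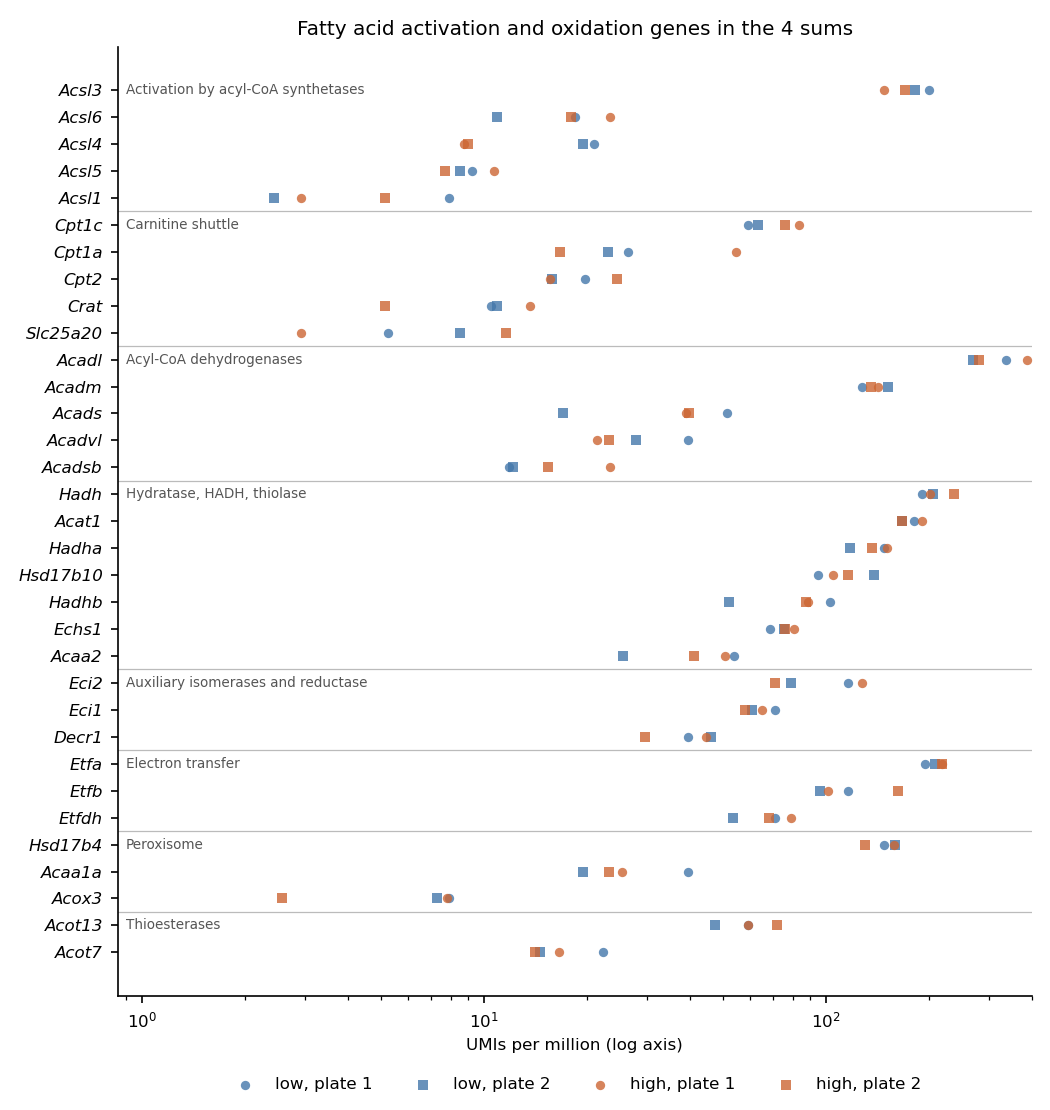
Levels of the 33 members in CPM (log axis) in the 4 sums, ordered by role, with circles for plate 1, squares for plate 2, blue for low and orange for high cells. *Acadl* lies furthest right, between 268 and 386, and most members show no clear separation of blue from orange.

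Among the enzymes of activation, *Acsl3*, a synthetase of the endoplasmic reticulum and of LDs, dominated. It stood at 200 and 182 CPM in low and at 148 and 170 in high cells of plates 1 and 2. *Acsl4*, which prefers arachidonic acid, stood at 21.0 and 19.4 in low and at 8.75 and 9.0 in high. *Acsl6*, a synthetase of neural cells, ranged from 10.9 to 23.3, *Acsl5* from 7.72 to 10.7 and *Acsl1* from 2.43 to 7.89. For *Acsl3* and *Acsl4* both low sums lay above both high sums. Of the counts of *Acsl3*, 23.4% came from cells in which the value was not a whole UMI, so that part of its signal was shared with other transcripts by the authors' counting.

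In the carnitine shuttle, *Cpt1c*, the neuronal form of carnitine palmitoyltransferase 1, was detected at a higher level than *Cpt1a*, the form that controls entry of fatty acids into mitochondria in most tissues. *Cpt1c* stood at 59.2 and 63.1 CPM in low and at 83.6 and 75.9 in high cells of plates 1 and 2. *Cpt1a* gave 26.3 and 23.1 in low and 54.5 and 16.7 in high. The *Cpt1a* values therefore went opposite ways on the plates, with 56 counts in the high sum of plate 1 and 13 to 20 in the others. *Cpt2*, which rebuilds acyl-CoA inside mitochondria, gave 19.7 and 15.8 in low and 15.6 and 24.4 in high. The carnitine carrier *Slc25a20* gave 5.26 and 8.50 in low and 2.92 and 11.6 in high, from 3 to 9 counts, and *Crat*, the carnitine acetyltransferase, ranged from 5.15 to 13.6.

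The acyl-CoA dehydrogenases take the first oxidative step, each on its own chain length. *Acadl* stood at 337 and 268 CPM in low and at 386 and 279 in high cells of plates 1 and 2, so the plates differed more than the categories. The medium-chain enzyme *Acadm* gave 128 and 152 in low and 142 and 135 in high, with overlapping groups. *Acadvl*, the very long-chain enzyme, gave 39.5 and 27.9 in low and 21.4 and 23.2 in high, with both low sums above both high sums. *Acads* (short chains) ranged from 17.0 to 51.3, and *Acadsb* (branched short chains) from 11.8 to 23.3.

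The next steps are taken by *Hadha* and *Hadhb* on long chains, and by *Echs1*, *Hadh*, *Hsd17b10*, *Acaa2* and *Acat1* on shorter ones. *Hadha* gave 147 and 118 CPM in low and 151 and 136 in high cells of plates 1 and 2. Its partner *Hadhb* gave 103 and 52.2 in low and 88.5 and 87.5 in high. In both, the lower of the low sums was that of plate 2, and the groups overlapped. *Hadh*, the hydroxyacyl-CoA dehydrogenase of shorter chains, gave 191 and 205 in low and 201 and 237 in high. *Acat1*, a thiolase that also serves ketone bodies and isoleucine, gave 180 and 166 in low and 191 and 167 in high. *Hsd17b10*, which also takes part in mitochondrial tRNA processing, gave 94.7 and 138 in low and 105 and 116 in high. The groups overlapped for all 3. The hydratase *Echs1* ranged from 68.4 to 80.7, and the thiolase *Acaa2* from 25.5 to 53.9.

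Unsaturated chains need auxiliary enzymes, of which *Eci2* ranged from 70.7 to 127 CPM, *Eci1* from 57.9 to 71.0 and *Decr1* from 29.6 to 46.1. Among the carriers of electrons, the flavoprotein subunit *Etfa* gave 195 and 209 in low and 218 and 219 in high cells of plates 1 and 2. The other subunit, *Etfb*, gave 116 and 95.9 in low and 101 and 162 in high. The high sums lay above the low ones for *Etfa* by a small margin, and only on plate 2 for *Etfb*. *Etfdh*, which passes the electrons to ubiquinone, ranged from 53.4 to 78.8. In peroxisomes, the multifunctional enzyme *Hsd17b4* gave 147 and 159 in low and 158 and 130 in high, the thiolase *Acaa1a* ranged from 19.4 to 39.5 and the oxidase *Acox3* from 2.57 to 7.89. The mitochondrial thioesterase *Acot13* gave 59.2 and 47.4 in low and 59.3 and 72.0 in high, and *Acot7*, a thioesterase abundant in brain, ranged from 14.1 to 22.4.

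High and low PLIN2-GFP NSPCs were then compared, to ask whether cells with more GFP signal, the readout of LDs, differ in these mRNAs. None of the 28 members that passed the filter on low counts was called at an adjusted p under 0.1 in edgeR's quasi-likelihood test with the plate as a block. Over all 8348 genes tested, 74 were higher and 105 lower in high cells, which is 2.14% called. The fit in limma voom also called 0 members. DESeq2 gave an adjusted p to 418 of the genes and to none of these members, and 0 members had an unadjusted p under 0.05 in it. One member, *Acsl4*, had an unadjusted p under 0.05, where 5.82% of all genes were lower at that level. It was named after its values were seen, from 48 counts in all, with a log2 fold change of -1.18 (SE 0.44, edgeR adjusted p = 0.208). Depth limits these values, and the 5 members not tested were *Slc25a20*, *Crat*, *Acsl1*, *Acsl5* and *Acox3*.

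By counts, 18 of the 28 members had a positive and 10 a negative log2 fold change, with a median of 0.12 against -0.0015 over all genes, and 49.7% of all genes were positive. The sign was the same on both plates for 16 of the 28 members, and for 56.3% of all genes tested. In 8 members (5 higher, 3 lower) the groups of 2 sums did not overlap, as for 31.8% of all genes tested. The 3 carnitine shuttle genes tested (0.15 to 0.51) and the 3 electron transfer genes (0.11 to 0.29) had positive values, and both peroxisomal genes tested had negative ones (-0.29 and -0.09). Among the named members the fold changes were 0.51 for *Cpt1a* (SE 0.31, 1.05 on plate 1 and -0.46 on plate 2), 0.38 for *Cpt1c* (SE 0.22), 0.15 for *Cpt2* (SE 0.39), -0.61 for *Acadvl* (SE 0.33) and -0.27 for *Acsl3* (SE 0.15). The edgeR adjusted p-values of these 5 ranged from 0.5 to 0.954.

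The deeply counted members had narrower intervals. The 95% interval of the log2 fold change, by the normal approximation from its SE, ran from -0.10 to 0.37 for *Acadl*, from -0.13 to 0.41 for *Hadh*, from -0.16 to 0.39 for *Etfa*, from -0.20 to 0.43 for *Hadha* and from -0.24 to 0.33 for *Acat1*. It was wider for *Cpt1a*, from -0.10 to 1.13, and for *Cpt2*, from -0.61 to 0.91. The SEs draw on a spread shared over genes, so these intervals hold little of a gene's own difference between plates. For *Cpt1a* the plate 2 value of -0.46 lay outside its interval. The remaining values were 0.29 for *Etfb*, 0.29 for *Acot13*, 0.18 for *Hadhb*, -0.0056 for *Acadm*, -0.09 for *Hsd17b4* and -0.07 for *Hsd17b10*, with SEs of 0.16 to 0.24.

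**Figure D2:**
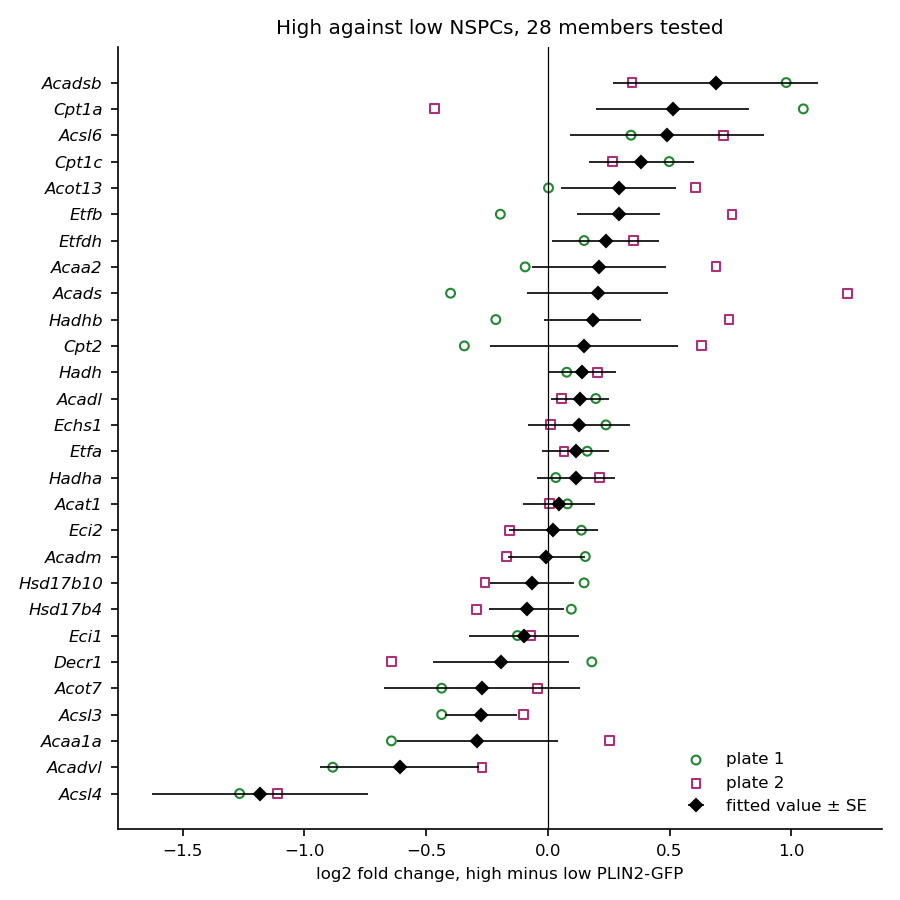
Log2 fold change of the 28 members tested, high minus low cells, with diamonds for the fitted value ± SE, circles for plate 1 and squares for plate 2. Values run from -1.18 for *Acsl4* to 0.69 for *Acadsb*, and for *Cpt1a* the plates lie on opposite sides of 0.

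As a module, the 33 genes held slightly more of the UMIs in the high category. Their share was 0.274% in high and 0.252% in low cells of plate 1, and 0.254% and 0.230% on plate 2. The differences were 0.0216 and 0.0241 percentage points, a mean of 0.0229 ± 0.0018 (SD, n = 2 plates). Exact 95% binomial intervals, which cover counting error only, were 0.264 to 0.284% and 0.242 to 0.264% on plate 1, and 0.243 to 0.266% and 0.220 to 0.240% on plate 2. Both high sums lay above both low sums. Across plates the margin was small, since the low sum of plate 1 and the high sum of plate 2 were nearly level and their intervals overlapped. These shares were not scaled by TMM factors, so they include any shift common to most genes. In edgeR with library size only, the median log2 fold change was 0.19 for the 28 members tested and 0.066 over all genes. The share of mitochondrially encoded counts differed too, at 11.6 and 11.0% in the high sums and 13.3 and 12.3% in the low sums of plates 1 and 2. With mitochondrially encoded genes and the nuclear rRNA entry taken out of the total, the difference was 0.0200 percentage points, and among cells with 10 to 15% mitochondrial counts, an alternative chosen after seeing the data, it was 0.0141. In cells thinned to 5000 UMIs it was 0.0192 ± 0.0221 (SD, n = 2 plates), so there the difference was smaller than the spread between the plates. By role, the share of the synthetases was lower in high than in low cells on both plates (0.0193 against 0.0244%, and 0.0209 against 0.0216%). The shares of the carnitine shuttle, the acyl-CoA dehydrogenases, the hydratase to thiolase steps and electron transfer were higher on both, for example 0.0397 against 0.0361% and 0.0448 against 0.0344% for electron transfer.

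The authors assigned each cell to a cell cycle phase from cell cycle genes, and no member is among the 103 genes of the standard lists for that scoring. Phases were compared over 12 sums, one for each plate, category and phase, with plate and category as a block. In S phase, *Hadh*, *Etfa* and *Acot13* fell relative to G1, and in G2/M *Hadh* and *Etfa* fell and *Acsl3* rose. So 3 of the 22 members tested were called lower in S, where 7.35% of all genes were lower and 9.3% higher, and 0 were called higher. In G2/M, 2 were lower and 1 was higher, where 9.87% of all genes were lower and 10.6% higher.

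For *Hadh*, the G1 sums of plates 1 and 2 were 205 and 265 CPM in low and 278 and 318 in high cells. In S they were 174 and 147 in low and 175 and 223 in high, and in G2/M 209 and 225 in low and 176 and 211 in high. The S value lay below the G1 value in 4 of 4 combinations of plate and category, and the G2/M value in 3 of 4. The log2 fold change was -0.57 in S (SE 0.16, edgeR adjusted p = 0.0120) and -0.38 in G2/M (SE 0.15, adjusted p = 0.0869).

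*Etfa* gave 229 and 296 CPM in low and 300 and 249 in high cells in G1 of plates 1 and 2. It gave 169 and 177 in low and 182 and 219 in high in S, and 182 and 177 in low and 196 and 219 in high in G2/M. All 4 G1 sums lay above all S and G2/M sums. The log2 fold change was -0.53 in S (SE 0.15, edgeR adjusted p = 0.0154) and -0.49 in G2/M (SE 0.15, adjusted p = 0.0191).

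*Acot13* gave 78.3 and 73.0 CPM in low and 84.8 and 69.0 in high cells in G1. In S it gave 34.9 and 33.8 in low and 44.7 and 66.5 in high, and in G2/M 53.6 and 40.6 in low and 54.3 and 92.1 in high. Each S sum was below its G1 sum, by the least in high cells of plate 2, where the G2/M sum was the highest of all. The log2 fold change was -0.78 in S (SE 0.27, edgeR adjusted p = 0.0537) and -0.41 in G2/M (SE 0.25, adjusted p = 0.316).

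*Acsl3* went the other way. In G1 it gave 197 and 161 CPM in low and 96.9 and 96.7 in high cells of plates 1 and 2. In S it gave 174 and 199 in low and 197 and 176 in high, and in G2/M 263 and 203 in low and 173 and 254 in high. The G2/M sum lay above the G1 sum in 4 of 4 combinations and the S sum in 3 of 4. The log2 fold change was 0.67 in G2/M (SE 0.18, edgeR adjusted p = 0.00713) and 0.46 in S (SE 0.19, adjusted p = 0.109). The low G1 values were those of the high category, so the difference between the categories was looked at within phases. In G1 cells alone, *Acsl3* had a log2 fold change of -0.93 for high minus low (SE 0.23, edgeR adjusted p = 0.174 over 5288 genes). The test of the difference itself, the high minus low change in S and G2/M against that in G1, gave 0.82 for *Acsl3* (SE 0.31, edgeR adjusted p = 0.956). In that test 0 of 6163 genes were called (0%) and 4.97% had an unadjusted p under 0.05, and *Acsl3* was the only one of the 22 members among these. DESeq2 and limma voom were not run on it.

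**Figure D3:**
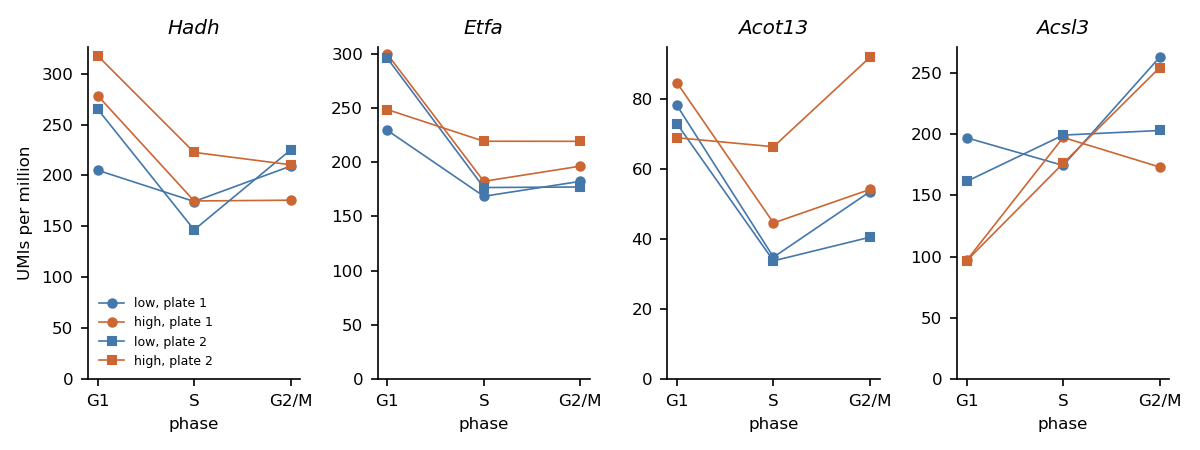
Levels in CPM of the 4 members called between phases, by phase, with a line for each plate and category (circles plate 1, squares plate 2, blue low, orange high cells). *Hadh*, *Etfa* and *Acot13* are lower in S than in G1 on every line, while *Acsl3* starts at 97 on both orange lines and ends between 173 and 254.

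No other member was called. In both S and G2/M, 18 of the 22 had a negative and 4 a positive log2 fold change, with medians of -0.29 and -0.30 against -0.03 and -0.02 over all genes, of which 47.0% and 48.6% were positive. All 3 electron transfer genes, all 3 acyl-CoA dehydrogenases tested and both peroxisomal genes tested had negative values in both phases. Of the 7 genes of the hydratase to thiolase steps 6 did, with *Acat1* positive (0.13 in S and 0.07 in G2/M). Among members not called, the log2 fold changes in S and G2/M were -0.20 and -0.23 for *Acadl*, -0.42 and -0.29 for *Acadm*, -0.22 and -0.38 for *Hadha*, -0.26 and -0.31 for *Hadhb* and -0.40 and -0.33 for *Etfb*, with SEs of 0.15 to 0.22. *Cpt1a* gave 0.38 and 0.10 (SE 0.39 in each) and *Cpt1c* -0.47 and -0.36 (SEs 0.28 and 0.27). *Cpt2*, *Slc25a20*, *Acadvl*, *Acadsb*, *Acox3*, *Crat*, *Acot7*, *Acsl1*, *Acsl4*, *Acsl5* and *Acsl6* had too few counts to be tested between phases.

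**Figure D4:**
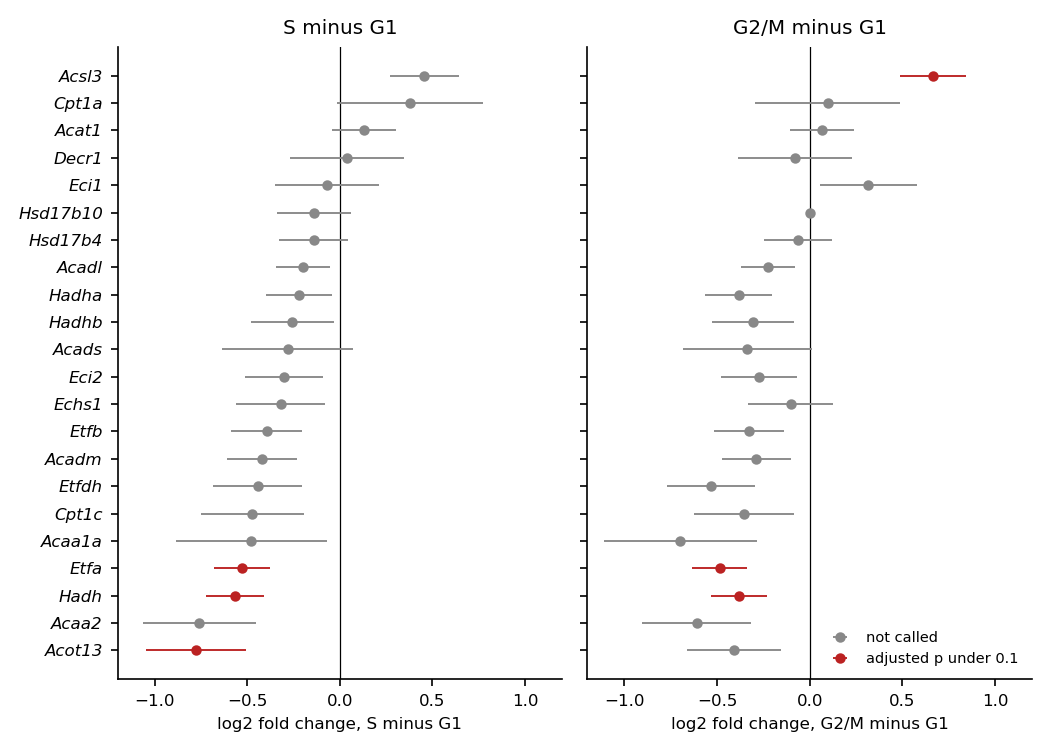
Log2 fold change ± SE of the 22 members tested, S minus G1 (left) and G2/M minus G1 (right), with red for an adjusted p under 0.1. Of the 22 points, 18 lie left of 0 in each panel, and no bar is drawn for *Hsd17b10* in G2/M, where the change is too near 0 for a reliable SE, which is derived from the change itself.

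The calls in S and G2/M differed with the test and in thinned cells. DESeq2 called 0 of the members in S and *Acsl3* alone in G2/M, and in cells thinned to 5000 UMIs, where 11 members remained, the counts were 0 and 1. Thinning also left out the 45 of 304 cells with under 5000 UMIs, so depth and the choice of cells were not separated. In the thinned cells the log2 fold changes in G2/M were -0.12 for *Etfa*, -0.076 for *Hadh* and 0.69 for *Acsl3*, and those in S were -0.58 for *Etfa* and -0.38 for *Hadh*. So the G2/M values of *Etfa* and *Hadh* shrank there, whereas that of *Acsl3* did not. With either plate left out no member was called in S, whereas each of *Hadh*, *Etfa* and *Acot13* kept a negative value (-0.46 to -0.64, -0.46 to -0.58 and -0.53 to -0.99). In G2/M, *Hadh* and *Etfa* lost their calls with either plate left out (-0.36 to -0.40 and -0.47 to -0.48). *Acsl3* and *Cpt1c* were called without plate 1 (0.80 and -1.14), and *Hadha* alone without plate 2 (-0.66), where *Acsl3* had a value of 0.56 and *Cpt1c* of 0.24. Over all alternatives, *Hadh* was called in 3 of 15, *Etfa* in 11 of 15 and *Acsl3* in 13 of 15 in G2/M, and *Hadh* in 11 of 15, *Etfa* in 11 of 15 and *Acot13* in 8 of 14 in S. The call of *Hadh* in G2/M was thus lost in most of them, while its log2 fold change stayed negative in all 15 (-0.40 to -0.076). Cells in G1 also had the larger share of mitochondrially encoded counts, 12.3 to 14.2% against 10.9 to 12.7% in S and 9.85 to 12.2% in G2/M. Among the 212 cells with 10 to 15% mitochondrial counts the same 3 members were called in S, and *Etfa* alone in G2/M, where *Acsl3* was at 0.43. The summed NSPC markers were also higher in G1 (8827 to 9369 CPM) than in S (7685 to 8151) and G2/M (7262 to 8060), with *Slc1a3* called lower in both phases, *Fabp7* lower and *Nes* higher in S, and *Vim* lower and *Pax6* higher in G2/M. Oligodendrocyte precursor markers (3 of 5 measured, without *Pdgfra* and *Sox10*) summed to 4273 to 4889 CPM in G1, 3201 to 4284 in S and 2622 to 2923 in G2/M. Among them *Olig1* (log2 fold change -0.31 in S and -0.81 in G2/M) and *Olig2* (-0.41 and -0.55) were called lower in both phases. Astrocyte markers summed to 124 to 179 in G1, 40.7 to 164 in S and 62.7 to 91.2 in G2/M, with no gene called. The part of these markers in the results was not tested.

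The 250 bases before the annotated start are shown for members called between phases in the main fit. RefSeq's table for GRCm38.p6 matched 27 of the 33 members, among them *Hadh*, *Etfa* and *Acsl3*. It did not match *Acot13*, which was also called, so no sequence is shown for that gene. Capitals mark the letters CCAAT and GGGCGG (or their reverse complements), which are known as the CCAAT box and the GC box. The sequences read 5′ to 3′ on the strand of the gene, from chr3:131272102-131272351 (minus strand), chr9:55512244-55512493 (minus strand) and chr1:78657575-78657824 (plus strand).
Hadh: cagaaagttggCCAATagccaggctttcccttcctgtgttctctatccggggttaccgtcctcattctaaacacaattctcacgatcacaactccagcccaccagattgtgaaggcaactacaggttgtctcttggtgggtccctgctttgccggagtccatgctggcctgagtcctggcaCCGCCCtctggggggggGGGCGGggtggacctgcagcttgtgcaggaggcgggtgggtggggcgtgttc
Etfa: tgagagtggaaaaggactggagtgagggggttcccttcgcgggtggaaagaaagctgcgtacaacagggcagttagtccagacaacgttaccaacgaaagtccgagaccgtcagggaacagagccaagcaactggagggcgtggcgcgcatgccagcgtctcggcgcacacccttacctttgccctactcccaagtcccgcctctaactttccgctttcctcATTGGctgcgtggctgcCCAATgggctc
Acsl3: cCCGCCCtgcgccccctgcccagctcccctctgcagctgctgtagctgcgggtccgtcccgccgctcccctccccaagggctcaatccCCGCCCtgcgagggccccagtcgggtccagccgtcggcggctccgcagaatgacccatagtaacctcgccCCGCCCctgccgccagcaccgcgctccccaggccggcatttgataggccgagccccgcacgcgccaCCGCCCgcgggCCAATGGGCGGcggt
*Hadh* held CCAAT 239 bases before the start and GGGCGG at 69 (reverse) and 52. *Etfa* held CCAAT at 28 (reverse) and 11 and no GGGCGG. *Acsl3* held CCAAT at 15 and GGGCGG at 249, 162, 92 and 26 (reverse) and at 10, directly beside the CCAAT. Searched on both strands, CCAAT occurred in 33.8% and GGGCGG in 32.7% of all 32851 windows of the same length. AGGTCA, a binding element of nuclear receptors, and TTTGAA, a core of the cell cycle homology region, occurred in 14.0% and 16.0% of all windows and in none of these 3. Among the 27 matched members, CCAAT occurred in 13, GGGCGG in 21, AGGTCA in 6 and TTTGAA in 4. Members were counted once per gene. The windows were counted once per RefSeq row, whether or not the gene was measured here, so these counts and the percentages are not like for like. A match describes letters only.

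By phase, the share of UMIs in the 33 genes was 0.292 and 0.256% in G1 of high and 0.275 and 0.249% in G1 of low cells of plates 1 and 2. In S it was 0.255 and 0.256% in high and 0.226 and 0.220% in low, and in G2/M 0.272 and 0.250% in high and 0.230 and 0.221% in low. It was below the G1 share in all 8 sums of S and G2/M, on plate 2 in high cells by the least. The mean difference from G1 was -0.0292 ± 0.0206 percentage points in S and -0.0251 ± 0.0162 in G2/M (SD, n = 4 combinations of plate and category, from 2 plates). In each phase and on each plate the share was higher in high than in low cells.

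The authors' table also gives 2 clusters of cells. Cluster 0 held 61 of 84 and 40 of 53 high, but 31 of 95 and 23 of 72 low cells of plates 1 and 2. The clusters were made from the expression of the same cells, so their values are a description. The share of UMIs in the 33 genes was 0.283 and 0.259% in high and 0.288 and 0.262% in low cells of cluster 0. In cluster 1 it was 0.254 and 0.237% in high and 0.238 and 0.216% in low cells. Cluster 0 was above cluster 1 in all 4 combinations of plate and category. Within cluster 0 the high share was slightly below the low share on both plates, and within cluster 1 it was above it on both.

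**Figure D5:**
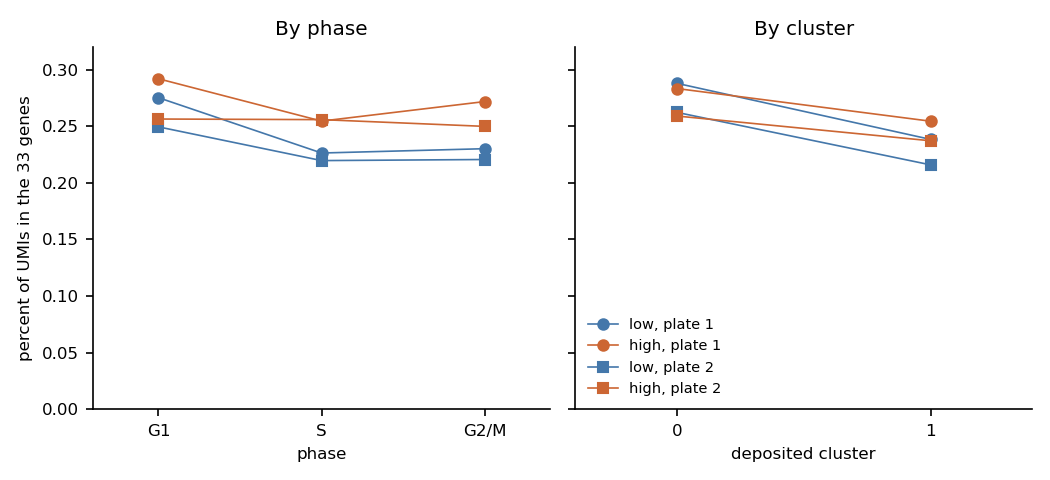
Percent of all UMIs in the 33 genes by phase (left) and by deposited cluster (right), with a line for each plate and category (circles plate 1, squares plate 2, blue low, orange high cells). Shares run from 0.216 to 0.292%, are highest in G1 on every line (nearly level with S in high cells of plate 2), and are higher in cluster 0 than in cluster 1 on every line.

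Beyond the 33 genes, a list of 91 other genes of fatty acid uptake, breakdown and their control was counted. It was chosen with earlier results of these data known, so its counts are a description and no test of the list. Of the 91 genes, 74 had a row and 41 were tested between the categories. Of these, 3 were called higher in high cells and 0 lower, with 32 positive and 9 negative values, where 0.886% of all genes were called higher. They were *Acsbg1*, an acyl-CoA synthetase of the brain (log2 fold change 0.38, SE 0.10, edgeR adjusted p = 0.0212), *Crot*, the peroxisomal carnitine octanoyltransferase (0.76, SE 0.20, adjusted p = 0.0175), and *Prkaa2*, a catalytic subunit of AMP-activated kinase (1.40, SE 0.43, adjusted p = 0.0725). In mean level these 3 genes stood at 514, 83.0 and 16.1 CPM, with the largest change at the lowest level. They were called under 9 of 17, 8 of 16 and 5 of 12 alternatives that gave an adjusted p, and none of the 3 without the block. DESeq2 gave an adjusted p of 0.486 for *Acsbg1* and none for the other two. Between phases 27 were tested, and 4 were lower in S (*Crot*, *Acsbg1*, *Pcca*, *Mmut*) and 5 lower in G2/M (*Crot*, *Acsbg1*, *Them4*, *Hibadh*, *Echdc1*), with 0 higher in either, beside the 7.35% and 9.87% of all genes that were lower. DESeq2 called *Acsbg1* alone in S, and *Acsbg1* and *Crot* in G2/M. In S, *Acsbg1* was called in 13 of 15 alternatives, *Mmut* in 12 of 13, *Crot* in 10 of 15 and *Pcca* in 8 of 15, and without the block *Acsbg1* and *Crot* lost their calls. In G2/M the counts were 15 of 15 for *Acsbg1*, 12 of 15 for *Crot*, 9 of 15 for *Hibadh*, 8 of 15 for *Echdc1* and 2 of 10 for *Them4*. *Acsbg1* had the smallest adjusted p among them, with -0.52 in S (SE 0.11, edgeR adjusted p = 0.00106) and -0.68 in G2/M (SE 0.11, adjusted p = 1.32e-05), and *Crot* gave -0.68 (SE 0.22, adjusted p = 0.0341) and -0.95 (SE 0.22, adjusted p = 0.00177).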

How the data were processed

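The authors made SORT-seq libraries, assigned reads with Salmon and alevin to GRCm38 (tool versions are not given in the sources used here), filtered cells on mitochondrial percentage and doublets, and deposited estimated counts (expected counts) of UMIs per gene and cell, not normalized. The deposited per-cell table gives total counts, mitochondrial percent, plate, category, phase and cluster. Columns were joined to cells by equal total and number of genes, with 0 left over. Among the 304 cells, 11 had 20% or more mitochondrial counts.

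Counts were summed per plate and category (4 sums) or plate, category and phase (12 sums), rounded, and tested in edgeR 4.0.16 (TMM, filterByExpr, quasi-likelihood) with the plate, or plate and category, as a block. The SE is the log2 fold change over the square root of F. P-values were adjusted over all genes tested (Benjamini-Hochberg), with 0.1 as the threshold. Sums of 1 plate share a library, and that their deviations from the category means correlated (0.294) was checked. The plates come from 1 line, so p-values measure a spread between these sums that may be technical. For high minus low, edgeR drew this spread from many genes together. An SE or p-value there therefore holds little of a gene's own difference between plates. *Cpt1a*, at 1.05 and -0.46 on plates 1 and 2, had an SE of 0.31. Alternatives used DESeq2 1.42.0, limma voom 3.58.1, other scalings, filters and subsets of cells. Members named with values are those called, 9 core genes of the shuttle and spiral, and the 10 with the largest counts. The members and lists were chosen with earlier results of these data known. Sequences are from RefSeq and coordinates from GENCODE M21.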

Additional observations from a re-analysis of the deposited data

How the results depend on the processing

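The number of genes called between high and low cells (179) was 1 with no replicate block, 11 in DESeq2 (of the 418 genes with an adjusted p), 68 in thinned cells, 79 in cells with 10 to 15% mitochondrial counts (chosen after seeing the data), 8 in G1 cells, and 6 to 22 with 1 sum left out. There the block was dropped and the category left with 1 sum took its spread from the other. The members called were 0 in each of these but DESeq2, which gave no member an adjusted p. For S against G1 (1026 genes, 3 members), the genes were 608 with no replicate block, 430 in DESeq2, 333 in thinned cells, 634 in the cells with 10 to 15%, and 347 to 539 with a plate left out, and the members 0 in DESeq2, thinned cells and either plate alone. For G2/M against G1 (1262 genes, 3 members), the genes were 603 in DESeq2, 551 in thinned cells, 765 in the cells with 10 to 15%, and 455 to 782 with a plate left out, and the members 1 in the first 3 of these and 1 to 2 with a plate left out, among them *Cpt1c* and *Hadha*, which were not called with both plates. Without the block *Acot13* lost its call in S and *Hadh* in G2/M, and no other call of a member was lost in that fit. Fewer cells, UMIs or sums enter the subsets, and the cause of the other changes was not tested.

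The high minus low difference in module share (0.0229 percentage points) was 0.0200 without mitochondrially encoded genes and the nuclear rRNA entry, 0.0329 as a median over cells, 0.0185 without *Acadl*, 0.0192 in thinned cells and 0.0141 in the cells with 10 to 15%, where G2/M minus G1 was -0.0486. Signs changed only among values that were not called. Depth left 5 members untested between categories and 11 between phases. *Hsd17b10* in G2/M was at 0.033 without the block, 0.029 in DESeq2, 0.045 with library size only, 0.015 with median-of-ratios factors, 0.012 with no filter and 0.0037 with at least 100 counts. For high minus low, library size only gave 0.061 for *Acadm* and 0.00059 for *Hsd17b10*, and no filter gave 0.011 for *Acadm*. Thinned cells gave -0.060 for *Hadh*, 0.12 for *Acadm* and, in S, 0.12 for *Hadha*. Cells with 10 to 15% gave -0.14 for *Acat1*, 0.10 for *Acadm*, -0.072 for *Cpt2* and, in G2/M, -0.15 for *Acat1*. G1 cells gave -0.12 for *Acadl*, -0.22 for *Acat1* and 0.011 for *Hsd17b4*. With a sum or plate left out, high minus low ran from -0.11 to 0.36 for *Acadl*, from -0.049 to 0.14 for *Acat1*, from -0.29 to 0.10 for *Hsd17b4*, from -0.17 to 0.15 for *Acadm*, from -0.033 to 0.29 for *Hadha*, from -0.19 to 0.76 for *Etfb*, from -0.33 to 0.22 for *Hsd17b10*, from -0.55 to 1.15 for *Cpt1a*, from -0.34 to 0.63 for *Cpt2* and from -0.22 to 0.76 for *Hadhb*. S minus G1 ran from -0.13 to 0.49 for *Acat1* and from -0.31 to 0.066 for *Hsd17b4*, and G2/M minus G1 ran from -0.18 to 0.43 for *Acat1*, from -0.17 to 0.088 for *Hsd17b4*, from -0.12 to 0.11 for *Hsd17b10* and from -1.14 to 0.24 for *Cpt1c*.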
